A study of Homo sapiens with 8 samples.

Results

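The 9 genes described here belong to inflammatory signalling: the CXC chemokine genes IL8, CXCL6, CXCL1, CXCL5, CXCL3 and CXCL2, and the cytokine genes IL6, IL1A and IL1B. The measurements were ATAC-seq peaks, stretches of chromatin open enough for a transposase to cut. Peaks were taken wherever they overlapped 1 of 3 windows on hg19: 74560 to 75000 kb of chromosome 4 for the 6 chemokine genes, 22740 to 22790 kb of chromosome 7 for IL6, and 113520 to 113610 kb of chromosome 2 for IL1A and IL1B. Peaks of all libraries that shared at least 1 bp were merged into regions. The windows held 47 of the 80588 regions on chromosomes 1 to 22 and X, with 31 in the chemokine window, 3 in the IL6 window and 13 in the IL1 window.

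The study compared KOSC-2 and HSC-3, lines derived from oral squamous cell carcinoma and labelled radiosensitive and radioresistant. Each line received 0 or 8 Gy of radiation and was frozen 24 hours later, with 2 libraries for each of the 4 combinations and 8 in all. The labels name no genetic change or drug, and do not say whether the paired libraries were grown apart. The p-values therefore reflect library-to-library spread alone, which may be technical. Each label stands on a single cell line, so radiosensitivity cannot be told apart from any other difference between KOSC-2 and HSC-3. The identity of the lines was not checked against marker genes here.

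The CXC chemokines of this family are secreted proteins that draw neutrophils into tissue through the receptors CXCR1 and CXCR2. IL6 is a secreted cytokine that signals through its receptor to the transcription factor STAT3, and IL1A and IL1B are both ligands of the interleukin-1 receptor, which switches on NF-kB. NF-kB in turn is a known activator of most of these genes, and squamous carcinoma cells and irradiated, senescent cells are known to secrete several of them.

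The genes of the chemokine window are close relatives, and their promoters show it. All 9 genes were found in the RefSeq promoter table (GRCh38.p14, IL8 there under its current symbol CXCL8). Of these, 7 held the letters GGNNTTTCC, a form of the NF-kB motif, in the 250 bases before the start of the gene when both strands were searched; 5.48% of 35116 promoters did. The sequences below show that match in capitals with 15 bases on each side, read 5′ to 3′ along the gene, because they are the element that the 6 chemokine genes and IL6 share.
IL8, chr4:73740463-73740501, + strand, 91 bases before the start: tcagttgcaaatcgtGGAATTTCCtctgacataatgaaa
CXCL6, chr4:73836574-73836612, + strand, 89 bases before the start: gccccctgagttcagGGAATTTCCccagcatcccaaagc
CXCL5, chr4:73998744-73998782, - strand, 90 bases before the start: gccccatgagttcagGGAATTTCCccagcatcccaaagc
CXCL1, chr4:73869300-73869338, + strand, 78 bases before the start: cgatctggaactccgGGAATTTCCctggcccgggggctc
CXCL3, chr4:74038744-74038782, - strand, 78 bases before the start: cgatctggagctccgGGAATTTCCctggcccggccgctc
CXCL2, chr4:74099249-74099287, - strand, 77 bases before the start: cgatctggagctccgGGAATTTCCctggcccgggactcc
IL6, chr7:22727113-22727151, + strand, 72 bases before the start: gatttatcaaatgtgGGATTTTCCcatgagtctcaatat

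The 6 chemokine promoters carried the same GGAATTTCC, within 77 to 91 bases of the start. CXCL6 and CXCL5 are alike around it, as are CXCL1, CXCL3 and CXCL2. Those last genes held a further match, GGGCTTTCC, 53 bases before the start. IL1A and IL1B held no match to these letters in this stretch. These coordinates belong to another build than the peaks and cannot be laid over them. The peaks are therefore given by window and hg19 position, and no region is assigned to a gene.

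On chromosomes 1 to 22 and X, the deposited lists held 38234 to 51693 peaks for KOSC-2 and 22504 to 43089 for HSC-3. The windows took 19 to 29 peaks of each list. The median pileup (overlapping fragments at a peak's summit) was 18 for the chemokine window in KOSC-2 and 27.5 in HSC-3, with a lowest value of 8 and a highest of 109, so the weaker peaks rest on few fragments. A set of 3 libraries had a lower median enrichment over background at the regions called in all 8 (21.9 to 34.7, against 49.6 to 67.3 in the others): HSC-3 8 Gy replicate 1, KOSC-2 0 Gy replicate 1 and HSC-3 0 Gy replicate 2.

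The chemokine window took a larger share of the peaks in each HSC-3 library than in any KOSC-2 library. It took 21 and 18 peaks in the unirradiated and 15 and 20 in the irradiated HSC-3 libraries, against 15 and 12 and then 12 and 10 in KOSC-2. To allow for the length of the lists, the peaks were expressed per 10000 peaks of the same library. In HSC-3 the values were 5.01 and 7.66 at 0 Gy and 6.67 and 4.64 at 8 Gy. In KOSC-2 they were 3.92 and 2.64 at 0 Gy and 2.32 and 2.36 at 8 Gy. Every HSC-3 library stood above every KOSC-2 library.

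The means were 5.99 ± 1.42 (SD, n = 4) in HSC-3 and 2.81 ± 0.755 (SD, n = 4) in KOSC-2, a difference of -3.18 for KOSC-2 minus HSC-3. The exact two-sided permutation test gave p = 0.0286, the smallest that 4 against 4 libraries allow, and 0.0571 after Benjamini-Hochberg adjustment over the 3 windows and their sum. Of the 6037 stretches of 440 kb in the genome with a peak, 9.36% were likewise higher in HSC-3 without overlap. A further 11.3% were higher in KOSC-2. The bases covered by peaks, per Mb covered by the whole list, came to 593 ± 93.9 in HSC-3 and 260 ± 68.0 in KOSC-2 (SD over 4 libraries; p = 0.0286 by exact permutation, adjusted 0.0571). Without the 3 libraries of lower enrichment, a comparison chosen after seeing the data, the difference in peaks was -2.39 (exact permutation p = 0.1, the smallest that 3 against 2 allow). Its direction was fixed in advance, since leaving out libraries cannot bring an overlap between lines that had none. Only the size of the difference is informative here.

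The windows of IL6 and of IL1A and IL1B showed no such separation. Per 10000 peaks, the IL6 window held 0.497 ± 0.191 in KOSC-2 and 0.453 ± 0.0225 in HSC-3 (SD over 4 libraries; p = 0.686 by exact permutation, adjusted 0.686). These shares rest on 1, 2, 3 and 3 peaks in KOSC-2 and on 2, 1, 1 and 2 in HSC-3, with the 0 Gy pair first. In HSC-3 the longer lists held 2 peaks and the shorter lists 1, which keeps the shares alike and the SD small. The IL1 window held 1.76 ± 0.328 and 1.63 ± 0.354 (SD over 4 libraries; p = 0.686 by exact permutation, adjusted 0.686). The lines overlapped in both windows. Among stretches of 50 kb, 2.58% were higher in HSC-3 and 4.07% higher in KOSC-2 without overlap; among those of 90 kb, 3.78% and 5.29% were.

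**Figure D1:**
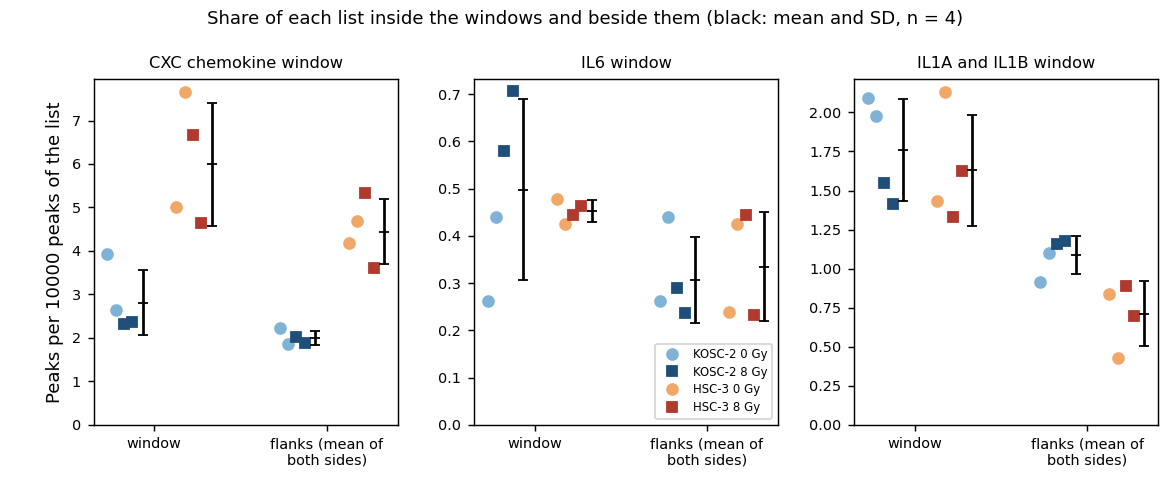
Peaks per 10000 peaks of the same library (vertical axes, starting at 0) in the chemokine, IL6 and IL1 windows and in the adjoining stretches of the same length, for each of the 8 libraries as a point; the black bars give the mean and SD of each line (n = 4). In the chemokine window the HSC-3 libraries lie between 4.64 and 7.66 and the KOSC-2 libraries between 2.32 and 3.92, and the adjoining stretches show the same order.

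The excess in HSC-3 was not limited to the chemokine window. The adjoining stretches of 440 kb held a mean of 4.45 ± 0.739 peaks per side and 10000 peaks in HSC-3 and 2.0 ± 0.164 in KOSC-2 (SD, n = 4 each). Window minus flanks differed by -0.740 between the lines (KOSC-2 minus HSC-3, exact permutation p = 0.286, adjusted 0.543). This value was -0.263 without HSC-3 0 Gy replicate 2, and ran to -1.04 without other single libraries and to -1.72 with lists of equal length.

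The background against which the chemokine peaks were tested also differed between the lines. It was recovered from the deposited fold and p of each peak and divided by the genome-wide background of the library. That was taken as the lowest background recovered in the library's list, so the ratio cannot be below 1. The median over the chemokine peaks was 3.19 and 3.02 at 0 Gy and 2.93 and 5.75 at 8 Gy in HSC-3. It was 1.39 and 1.61 at 0 Gy and 1.61 and 1.44 at 8 Gy in KOSC-2. In the flanks the range was 1.99 to 4.13 in HSC-3 and 1.24 to 2.06 in KOSC-2, and over chromosome 4 as a whole 1.69 to 2.42 and 1.45 to 2.06. The part of this background in the peak counts was not tested, and in these lists the number of copies of the segment cannot be told apart from broadly open chromatin. Within the window the ratio was uneven. At 74974713 to 74975953 it was 18.1 and 15 at 0 Gy and 7.81 and 24.1 at 8 Gy in HSC-3, and 3.96, 4.14, 5.39 and 4.86 in KOSC-2. At 74782697 to 74783335 it was 1.13 to 1.84 in HSC-3 and 1, the lowest value the ratio can take, in each KOSC-2 library.

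**Figure D2:**
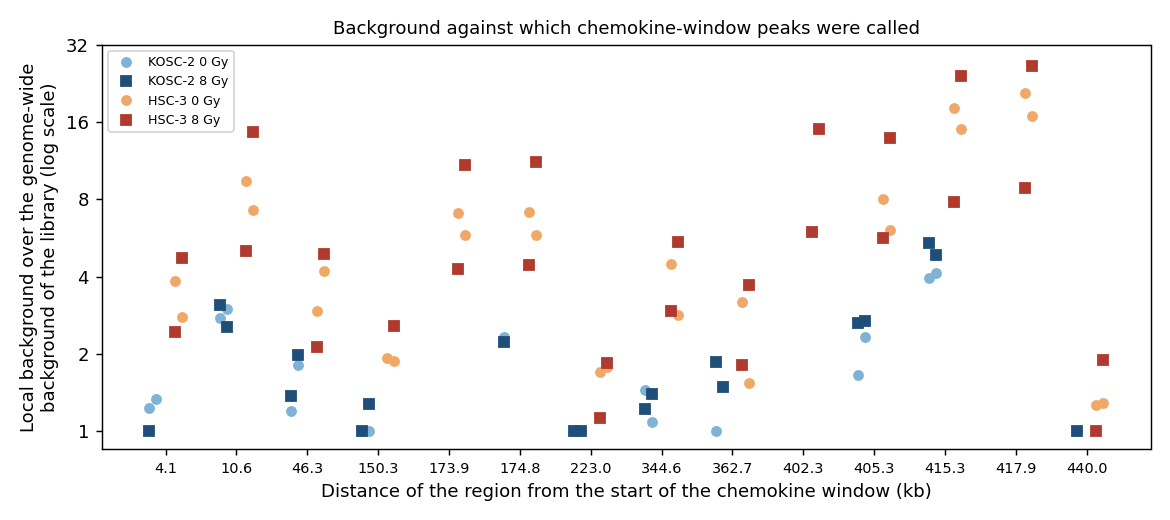
Local background divided by the genome-wide background of the library (vertical axis, log scale), at each named region of the chemokine window by its distance from the window's start in kb (horizontal axis), with 1 point per library that called a peak there. The HSC-3 points reach 24.1 at 415 kb and 26.5 at 418 kb, and the KOSC-2 points go no higher than 5.39.

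In the IL6 window the order was the other way for most libraries: the ratio was 3.35, 6.69, 5.90 and 6.80 in KOSC-2 and 2.85, 3.67, 1.78 and 4.91 in HSC-3, each with the 0 Gy pair first. In the IL1 window the lines overlapped, at 2.04 to 3.22 in KOSC-2 and 1.67 to 3.92 in HSC-3. The IL6 values rest on 1 to 3 peaks per library. Over the whole lists the median ratio was 2.07 to 2.76 in KOSC-2 and 2.2 to 2.85 in HSC-3. The KOSC-2 libraries were thus below their own lists at the chemokine peaks, and the HSC-3 libraries above theirs.

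Within the chemokine window, 15 regions were called in both lines, 13 in HSC-3 only and 3 in KOSC-2 only. Over all regions, 16.2% were called only in HSC-3 and 32% only in KOSC-2. Of the 31 regions, 7 were called in all 8 libraries (15.9% of all regions were). Another 11 were called in a single library (31.9% of all regions were). By construction these 11 count as called in HSC-3 only or KOSC-2 only. They include all 3 of the KOSC-2 regions and most of the 13 HSC-3 regions. The strictest difference required a peak in every library of a line and in none of the other line. It was met by 2 regions for HSC-3 (0.3% of all regions, and 1.66% of those called in each HSC-3 library) and by 0 for KOSC-2 (2.07%, and 6.52% of those called in each KOSC-2 library). Both HSC-3 regions lay in the chemokine window, where 12 regions were called in each HSC-3 library.

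**Figure D3:**
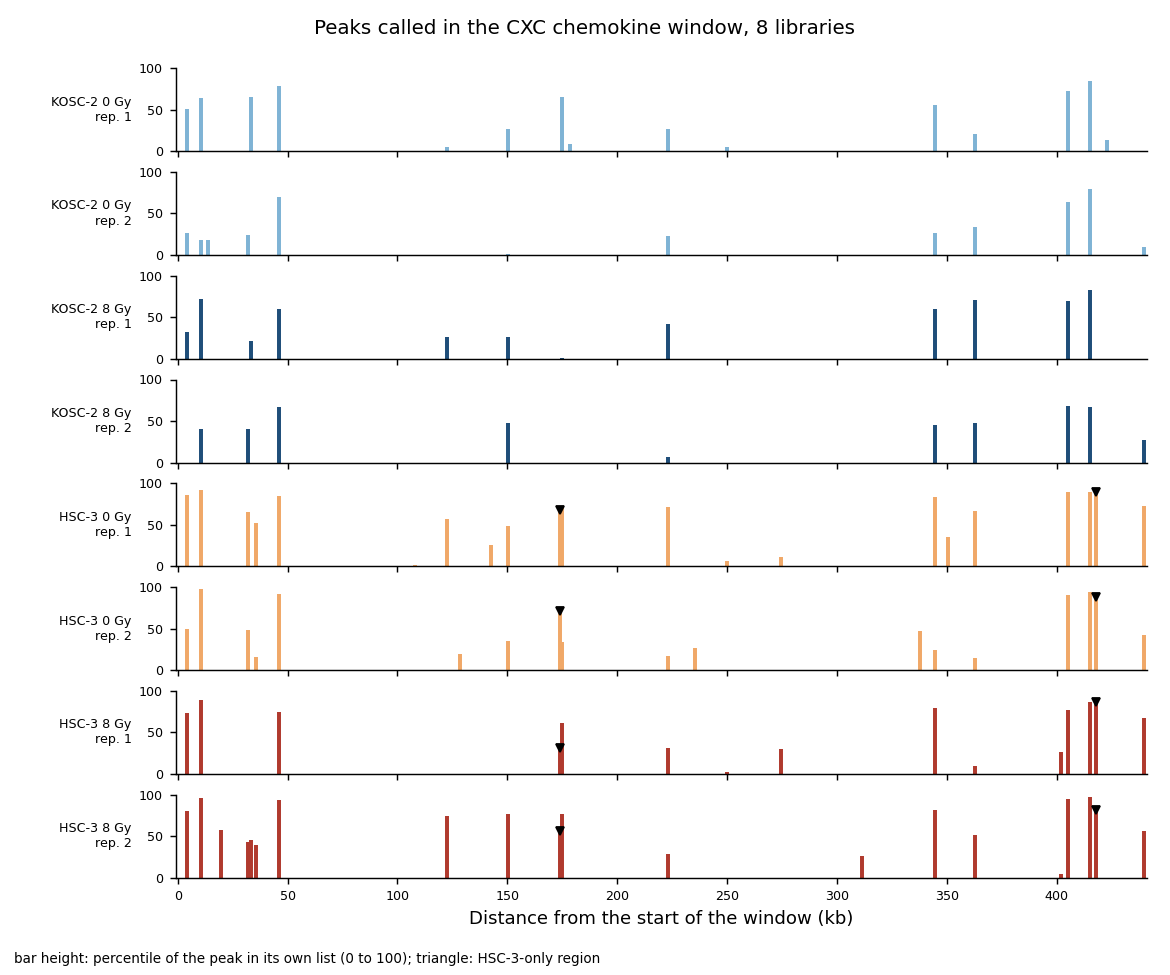
Peaks called in the chemokine window, 1 row per library, by distance from the window's start in kb (horizontal axis); the height of a bar is the percentile of the peak's -log10 p in its own list (0 to 100) and triangles mark the regions called in every HSC-3 library alone. Columns filled in all 8 rows are the 7 shared regions, and the stretch from 402 to 418 kb ends with 1 of the 2 regions called in every HSC-3 library alone.

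The first of the HSC-3 regions, at 74977591 to 74978120 of chromosome 4 (418 kb into the window), had the highest mean percentile of all the regions named here, taken over the lists that held it. Those were HSC-3 lists only, whereas regions called in both lines were averaged over KOSC-2 lists as well. The order is therefore not like for like. The region at 418 kb had deposited fold enrichments over background of 5.38 and 5.16 at 0 Gy and 5.13 and 4.53 at 8 Gy. By -log10 p it stood at percentiles 89.5, 88.0, 86.5 and 81.4 of the libraries' own lists, in the same order. Its neighbour at 74974713 to 74975953, which was called in both lines, stood at 89.5, 94.4, 86.0 and 96.7 of the same lists. The region at 74570017 to 74571151, also called in both lines, stood at 91.8, 98.1, 89.4 and 96.1. That at 74964842 to 74965704 stood at 89.7, 90.1, 76.7 and 95.1. The summit pileups of the region at 418 kb were 95, 57, 62 and 78. The local background there was 20.8, 16.9, 8.82 and 26.5 times the genome-wide one in that order. No KOSC-2 list held a peak there.

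The second, at 74733524 to 74734320 (174 kb), was weaker. Its folds were 6.27 and 6.43 at 0 Gy and 4.16 and 4.92 at 8 Gy, and its percentiles 68.0, 70.5, 31.3 and 56.1. Its summit pileups were 41 and 28 at 0 Gy and 26 and 37 at 8 Gy. It did not stand alone, since the next region, at 74734488 to 74735114, was called in every HSC-3 library and in 2 of 4 KOSC-2 libraries. That neighbour had folds of 6.66, 4.88, 5.10 and 6.16 in HSC-3, and of 6.69 and 3.75 in replicate 1 of KOSC-2 at 0 and 8 Gy. When a call was made to cover at least 50% of the region, 1 region of this kind was left in place of 2.

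Peaks were called in every library at 7 regions of the chemokine window and at 1 of the IL1 window. For these 8, the strength of the peak was compared between libraries by rank, as the percentile of its -log10 p among the 12827 regions shared by all 8 lists. Of the 7, 4 ranked higher in every HSC-3 library than in any KOSC-2 library, and 0 the other way. Over all 12827 regions, 9.51% ranked higher in HSC-3 without overlap and 9.52% in KOSC-2. On chromosome 4 these shares were 17% and 8% of 600 regions.

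The region at 74570017 to 74571151 (10.6 kb) differed most. Its percentiles in HSC-3 were 74.2 and 96.6 at 0 Gy and 82.0 and 87.3 at 8 Gy. In KOSC-2 they were 22 and 1.20 at 0 Gy and 22.2 and 7.44 at 8 Gy. It was thus among the strongest shared regions in one line and among the weakest in the other, by 71.8 percentile points on average.

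Next came the region at 74964842 to 74965704 (405 kb). It stood at 67.9, 82.6, 61.8 and 83.8 in HSC-3 and at 33.8, 19.7, 19.2 and 27.4 in KOSC-2, each with the 0 Gy pair first, a mean difference of 49.0 points. The region at 74605983 to 74606576 (46.3 kb) stood at 53.2, 84.5, 58.1 and 76.7 in HSC-3 and at 45.5, 25.4, 10.6 and 27.2 in KOSC-2, a difference of 40.9. All HSC-3 values exceeded all KOSC-2 values in both.

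The region at 74974713 to 74975953 (415 kb), the neighbour of the region at 418 kb, stood at 67.3, 90.1, 76.2 and 89.1 in HSC-3 and at 57.9, 42.4, 43.6 and 26.7 in KOSC-2, a difference of 38.1. Each of these 4 regions had p = 0.0286 by the exact two-sided permutation test and 0.150 after Benjamini-Hochberg adjustment over the 12827 regions. Every region without overlap has this p, so it adds nothing to the ranks. Of all the regions, 0 passed an adjusted 0.05, which could be passed only if most regions had this smallest p. The 2441 regions with an unadjusted p under 0.05 are those without overlap counted above.

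The other 3 shared chemokine regions overlapped between the lines. The region at 74904167 to 74905050 (345 kb) stood at 52.5, 11.4, 65.7 and 46.1 in HSC-3 and at 14.6, 2.48, 10.6 and 9.36 in KOSC-2 (exact permutation p = 0.0571, adjusted 0.204). Only HSC-3 0 Gy replicate 2, a library of lower enrichment, fell within the KOSC-2 range. The other libraries of lower enrichment gave the highest value of each line, 65.7 in HSC-3 8 Gy replicate 1 and 14.6 in KOSC-2 0 Gy replicate 1. The region at 74782697 to 74783335 (223 kb) had a mean of 13.2 in HSC-3 and 2.08 in KOSC-2, and that at 74922249 to 74923128 (363 kb) had 9.86 and 9.10.

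Ranks by deposited fold in place of p gave another picture: 0 of the 7 regions differed without overlap. The mean difference, KOSC-2 minus HSC-3, stayed negative at 10.6 kb (-33.1) and 46.3 kb (-13.3) and turned positive at 405 kb (7.11) and 415 kb (16.2). The fold divides by the local background, and the p also grows with the pileup. The local background of each HSC-3 library was above that of each KOSC-2 library at 405 and 415 kb, and likewise at 10.6 and 46.3 kb. The pileups did not overlap at 10.6 kb (51 to 86 in HSC-3, 18 to 41 in KOSC-2). At 405 kb they were 38 to 80 in HSC-3 and 29 to 37 in KOSC-2. At 46.3 and 415 kb the pileups of the lines overlapped. Their part in the change of sign was not tested.

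**Figure D4:**
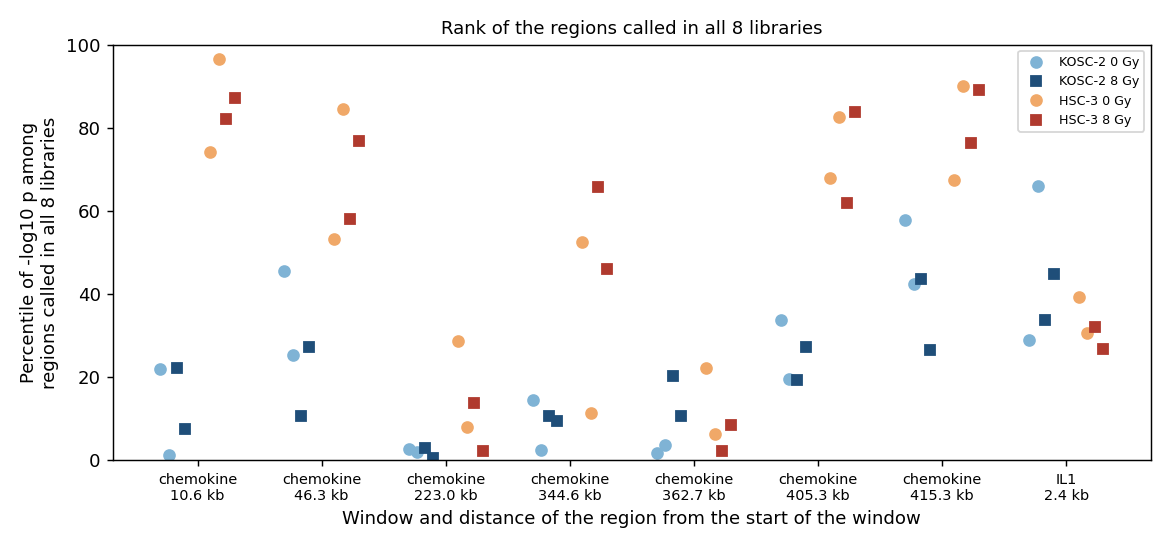
Percentile of -log10 p (vertical axis, 0 to 100) among the 12827 regions shared by all 8 lists, for the 7 chemokine regions and the 1 IL1 region among them, with 1 point per library. The lines separate at 10.6, 46.3, 405 and 415 kb, where all HSC-3 points lie above all KOSC-2 points, and overlap in the other 4 regions.

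The stretches beside the window held shared regions of the same kind. In the 440 kb before the window, 2 of 2 such regions ranked higher in HSC-3 without overlap, and in the 440 kb after it 5 of 6 did. Their median differences were 37.3 and 47.2 points, against 38.1 for the 7 regions of the window.

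A further 3 regions were called in all 4 libraries of HSC-3 or of KOSC-2 with a gap in the other line. The region at 74563821 to 74564338 (4.08 kb) was called in 7 libraries, with folds of 10.7, 6.72, 7.28 and 9.39 in HSC-3. In KOSC-2 its folds were 7.06, 6.64 and 7.18, and the peak was not called at 8 Gy in replicate 2. The region at 74999708 to 75000288, which crosses the end of the window, was called in every HSC-3 library and in replicate 2 of KOSC-2 at both doses. The region at 74710049 to 74710506 was called in every library but HSC-3 8 Gy replicate 1, the shortest list.

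IL6, the cytokine that acts through STAT3, had 3 regions in its window of 50 kb. The region at 22765960 to 22767174 of chromosome 7 was called in 7 libraries. Its folds were 4.26 and 5.96 at 0 Gy and 5.57 and 6.30 at 8 Gy in KOSC-2, and 5.73 and 4.97 at 0 Gy and 6.31 in 1 library at 8 Gy in HSC-3. The library without it was again HSC-3 8 Gy replicate 1.

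The region at 22757699 to 22758285 of chromosome 7, in the same window, was called mostly in irradiated libraries. In KOSC-2 it was called in both irradiated libraries, with folds of 7.42 and 10.7 and pileups of 20 and 31, and in neither unirradiated one. In HSC-3 it was called in both irradiated libraries, with folds of 7.32 and 5.83 and pileups of 23 and 12, and in 1 of 2 unirradiated ones, with a fold of 5.29 and a pileup of 10. Of all regions, 3.51% were gained in KOSC-2 by the same rule, and 0.215% (173) were called in 4 of 4 irradiated and at most 1 of 4 unirradiated libraries. It was the 1 region of the 47 with the latter pattern, which was looked for after its calls were seen. The reverse pattern was met by 0.132% of all regions and by 0 of the 47. Of the libraries without the region at 22757699 to 22758285, KOSC-2 0 Gy replicate 1 and HSC-3 0 Gy replicate 2 were of lower enrichment. KOSC-2 0 Gy replicate 2 was not, and HSC-3 8 Gy replicate 1, also of lower enrichment, called it. The third region of the window, at 22770904 to 22771282, lay outside the rule for named regions and was called in 3 KOSC-2 libraries and in no HSC-3 library.

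IL1A, which is active as soon as it leaves a damaged cell, and IL1B, which must be cleaved before release, lie side by side. Of the 13 regions in their window, 9 were called in both lines and 4 in KOSC-2 alone (32% of all regions were), and 1 was called in all 8 libraries (15.9% of all regions were). That region, at 113522036 to 113522701 of chromosome 2, had folds of 7.55, 12.9, 9.53 and 12 in KOSC-2 and of 9.89, 7.27, 6.65 and 8.67 in HSC-3, with the 0 Gy pair first. Its percentiles among the shared regions were 29.1, 65.9, 33.8 and 44.9 in KOSC-2 and 39.3, 30.7, 32.1 and 26.7 in HSC-3. The lines overlapped (difference 11.2, KOSC-2 minus HSC-3, exact permutation p = 0.229, adjusted 0.431).

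The regions at 113551732 to 113552152, 113561745 to 113562224 and 113594186 to 113594767 were called in every KOSC-2 library and in 3 of 4 HSC-3 libraries. Their missing calls fell in HSC-3 0 Gy replicate 2 and, for the last pair, in HSC-3 8 Gy replicate 1, the 2 shortest lists. Their folds ran from 4.47 to 9.0, 4.56 to 9.09 and 4.75 to 7.98.

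**Figure D5:**
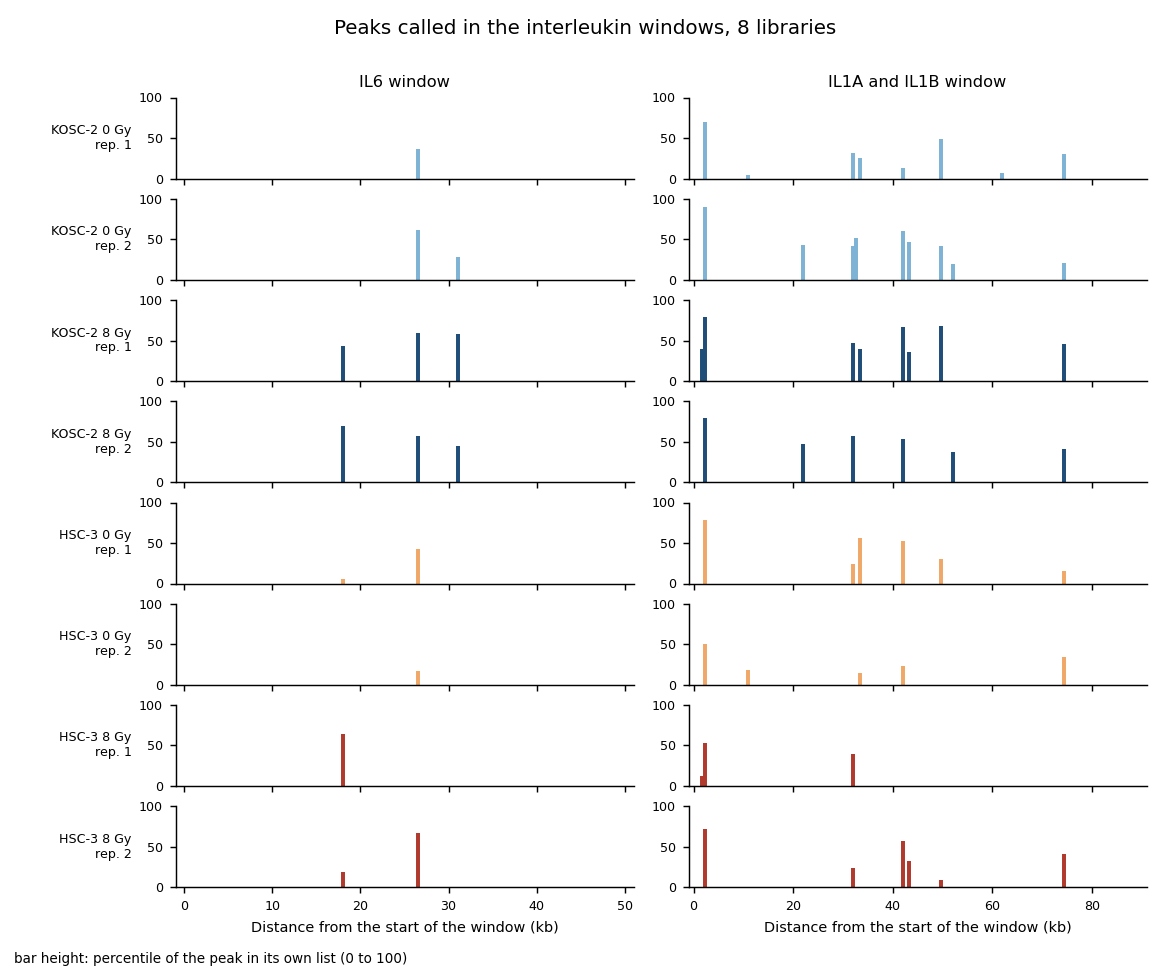
Peaks called in the IL6 window and the IL1 window, 1 row per library, by distance from the window's start in kb (horizontal axes); the height of a bar is the percentile of the peak's -log10 p in its own list (0 to 100). In the IL6 window the region near 18 kb is filled in all 4 irradiated libraries and 1 unirradiated library, and in the IL1 window the region at 2.37 kb is filled in all 8.

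The share of peaks by dose passed the test in none of the windows. Doses were exchanged within each line, which gives 36 assignments and a smallest possible p of 0.0556, so a single window could not pass 0.05. As a mean over lines, 8 Gy minus 0 Gy was -0.812 peaks per 10000 in the chemokine window (exact permutation p = 0.333, adjusted 0.333). Leaving out 1 library at a time gave -1.48 (without HSC-3 0 Gy replicate 1) to -0.148 (without HSC-3 0 Gy replicate 2). It was 0.148 in the IL6 window (exact permutation p = 0.167, adjusted 0.296) and -0.428 in the IL1 window (exact permutation p = 0.111, adjusted 0.296; -0.602 to -0.253 without the same libraries).

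In the chemokine window the mean went from 3.28 to 2.34 in KOSC-2 and from 6.34 to 5.65 in HSC-3. In the IL6 window it went from 0.351 to 0.644 in KOSC-2 and from 0.451 to 0.454 in HSC-3. In the IL1 window it went from 2.04 to 1.48 and from 1.78 to 1.48. The test of the difference between the lines' dose effects gave an adjusted exact permutation p of 0.889 in each window, with differences (KOSC-2 minus HSC-3) of -0.259, 0.290 and -0.254.

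Calls at single regions were also set against the dose. A region counted as gained in a line when both 8 Gy libraries and neither 0 Gy library called it, and as lost in the reverse case. In KOSC-2, 1 of the 47 regions was gained, the IL6 region above (3.51% of all regions were), and 0 were lost (0.87% of all regions). In HSC-3, 1 was gained (0.68%) and 1 was lost (0.957%). Counts this small do not set the windows apart from all regions.

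The region gained in HSC-3, at 74962045 to 74962476 of chromosome 4 (402 kb), was weak. Its folds were 3.60 and 2.80, at percentiles 25.7 and 3.74 of its lists, and no KOSC-2 library called it. The region lost in HSC-3, at 113553261 to 113553687 of chromosome 2, had folds of 7.24 and 5.11 in the unirradiated libraries. In KOSC-2 that region was called in replicate 1 at both doses, with folds of 4.16 and 6.19, and in replicate 2 at neither.

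Among the 8 regions called in every library, no rank passed the test by dose. The adjusted exact permutation p by dose was 0.912 or higher for each, and of all 12827 regions 0 passed either an adjusted or an unadjusted 0.05, which the smallest p of 0.0556 does not allow. The region at 74922249 to 74923128 (363 kb) ranked higher at 8 Gy in KOSC-2 without overlap (20.2 and 10.7 against 1.73 and 3.71). In HSC-3 its values at 8 Gy (2.26 and 8.53) overlapped those at 0 Gy (22.2 and 6.42). The other 7 overlapped in both lines. Without overlap by dose, in either direction, were thus 1 of 8 regions in KOSC-2 and 0 of 8 in HSC-3, against 36.4% and 33.3% of all regions called in every library. In both lines and in the same direction 7.48% of all these regions were, and 0 of the 8.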

How the data were processed

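ATAC-seq peak lists of 8 libraries were used, grouped by the labels into 2 lines and 2 doses. Build hg19 and the tools MACS2 2.2.6, Bowtie2 2.3.4.2, SAMtools 1.9, FastQC 0.11.7 and deepTools are listed in the submitters' processing notes, with no settings. Whether duplicates were removed or reads shifted to where the transposase cut is not given in the sources used here. For each peak the authors deposited a score, a ratio (fold enrichment at the summit over background), the −log10 p and −log10 q of the summit and the summit's offset. The lists have no header, and these columns were read by the narrowPeak layout. The score is 10 times the −log10 q without decimals. Folds and p-values are relative to 1 library and were used only to describe or rank peaks within it. Each list was deposited per library, and the lowest −log10 q was 2.02.

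From the lists the peaks per window, merged regions, ranks and exact two-sided permutation tests were computed in Python 3.11.15 with numpy 2.4.6, pandas 2.3.3 and scipy 1.17.1, and tested on simulated data. The 70 assignments of libraries to lines and 36 of doses within lines were all used. Pileup and background were recovered as the whole number of fragments that gives both the fold and the p under a Poisson law. Windows, genes and lists were chosen with earlier results of these data known. Regions named are those called in 4 of 4 libraries of a line or line-only, gained or lost. Alternatives were stricter q, equal list lengths, other window, overlap and rank definitions, leaving out libraries and a replicate block. Markers of the cell type and other NF-kB pathway genes need gene positions on hg19 and were not analysed here.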

Additional observations from a re-analysis of the deposited data

How the results depend on the processing

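The higher share of chemokine peaks in HSC-3 kept its direction under every alternative run, from -4.55 with lists cut to the 22504 strongest peaks to -2.39 without the 3 libraries of lowest enrichment, on the per-10000 scale. Runs that left out libraries could not have reversed this direction, since the lines did not overlap. As plain numbers of peaks the difference was -6.25 (exact permutation p = 0.0571, adjusted 0.171). Same-numbered libraries had correlations of their deviations of 0.131 between the doses of KOSC-2 and -0.0560 in HSC-3. Between groups of different lines they ran from -0.0957 to 0.0725. Each rests on 2 libraries per group, so whether the replicate numbers pair the libraries is not settled. With the replicate number as a block, the smallest possible p is 0.125. The chemokine difference of -3.18 had p = 0.125 by exact permutation with the block, adjusted 0.25. Without the block the exact permutation p was 0.0286, adjusted 0.0571. No window difference passed after adjustment without the block, and none could pass with it. The block could therefore change no call, and it does not show whether the difference holds.

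Differences between the lines' dose effects (KOSC-2 minus HSC-3) changed sign at a −log10 q of at least 5 (chemokine 0.410, IL1 0.0948, all windows 0.794) and with lists of equal length (1.11, 1.11 and 2.67), and for the chemokine window without the 3 libraries of lowest enrichment (0.0680). Equal lengths also turned the IL1 difference by line (-0.111) and the covered bases by dose over all windows (3.37), and left 0 regions gained and 3 lost in HSC-3 and 4 called in all libraries. Widening by 10 kb turned window minus flanks for IL6 (-0.0120). At −log10 q of at least 5, 0 regions were gained in HSC-3. With 3 of 4 against at most 1 of 4 calls, 1 region was KOSC-2-only. With 50% of the region covered, 1 was HSC-3-only and 5 were called in all libraries. Ranking by fold left 0 chemokine regions apart and turned the difference by line at 363 kb (10.1), 405 kb (7.11) and 415 kb (16.2) and by dose at 10.6 kb (-2.58).

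Without the 3 libraries of lowest enrichment, a choice made after seeing the data, 1 region was KOSC-2-only, 2 were lost in KOSC-2, 6 gained and 6 lost in HSC-3 and 13 called in all libraries; 7 chemokine regions then ranked higher in HSC-3 without overlap, fewer libraries making each rule easier to meet. Covered bases by line in the IL6 window became -3.82, and ranks by dose 2.38 at 46.3 kb, 6.76 at 405 kb and 2.31 at 415 kb.

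Leaving out 1 library at a time, which also makes the rules easier to meet, gave 1 to 5 regions gained and 1 to 7 lost in HSC-3, 1 to 2 gained and 0 to 5 lost in KOSC-2, and 0 to 1 KOSC-2-only. Covered bases by dose ran from -2.31 to 15.8 (IL6) and from -79.4 to 6.83 (chemokine), and by line from -24.7 to 14.2 (IL1) and from -3.44 to 9.27 (IL6). The difference between dose effects ran from -0.602 to 0.0951 (IL1), -1.59 to 1.07 (chemokine) and -1.87 to 1.43 (all windows). Peaks by line ran from -0.0256 to 0.123 (IL6), and window minus flanks from -0.417 to 0.0135 (IL1) and from -0.0209 to 0.136 (IL6). Ranks by dose ran from -4.29 to 6.85 at 10.6 kb, -2.88 to 5.97 at 363 kb, -8.43 to 1.64 at 405 kb and -15.9 to 2.38 for the IL1 region, and the rank by line at 363 kb from -5.55 to 3.36. Where no construction is named, the cause was not tested. The lowest pileup of a called peak in the windows was 8, and a missing call in a short list does not show closed chromatin. The shortest list, HSC-3 8 Gy replicate 1, had a median enrichment of 21.9 and a genome-wide background of 1.28. The parts of depth and enrichment in missing calls were not tested.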

Other observations

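The promoters were also searched for 2 further motifs on both strands, in the same 250 bases. TGANTCA, a form of the AP-1 motif, was found for IL8 and IL1A and in 6.57% of all promoters. TTGCNNAA, a form of the C/EBP motif, was found for CXCL2, IL6 and IL1B and in 9.05%. IL1B, which had no match to the NF-kB letters, thus held the C/EBP letters, and IL1A held the AP-1 letters at both of its listed start sites. A match is a description of the letters only.

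Of the 47 regions, 13 were called in a single library (31.9% of all regions were), 11 of them in the chemokine window and 2 in the IL1 window. Their folds ran from 3.78 to 8.30 with a median of 6.38. Their percentile in the list that held them ran from 1.40 to 57.2 with a median of 25.5, against 30.8 to 85.1 with a median of 71.1 for the mean percentile of the 8 regions called in every library.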
